A study of Mus musculus with 6 samples.

Results

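The genes described here encode the receptors and adaptors with which a mouse cell detects foreign or misplaced RNA and DNA: Ifih1, Ddx58, Dhx58 and Mavs of the cytosolic RNA pathway, the double-stranded RNA-activated kinase gene Eif2ak2, Zbp1, the endosomal receptor genes Tlr3, Tlr7 and Tlr9, and Tmem173, now called Sting1. They were taken by gene symbol, current or former, from the platform annotation. All 10 were measured, each by 1 probe set, among 18784 named genes.

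The arrays compared cultured mouse B lymphoma cells that carried 1 of 2 short hairpin RNAs, with 3 arrays of cells with Dhx9.1241, directed against the RNA helicase gene Dhx9, and 3 of cells with Rluc.713, a control named for Renilla luciferase. Cells of both groups lacked Arf, a tumour suppressor that acts through p53, and carried Bcl-2 and the Eu-myc transgene, which drives MYC from an immunoglobulin enhancer in B cells. Both were grown on irradiated Arf-/- mouse embryonic fibroblasts, and the labels name no drug for these arrays. No label states if arrays with the same hairpin represent independent cultures; the p-values therefore speak only of the spread among these 6 arrays, part or all of which may be technical. With a single hairpin against Dhx9, an effect of lower Dhx9 and any other effect of that hairpin cannot be told apart.

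Cytosolic RNA sensing rests on 3 related helicases. RIG-I, the product of Ddx58, and MDA5, the product of Ifih1, bind double-stranded RNA and pass the signal to MAVS on mitochondria, while LGP2, from Dhx58, lacks the signalling domains and modulates the other two. The endosomal Toll-like receptors TLR3, TLR7 and TLR9 read double-stranded RNA, single-stranded RNA and unmethylated DNA, and B cells are known to respond through TLR7 and TLR9. STING relays the cyclic dinucleotide made by the cytosolic DNA sensor cGAS, ZBP1 binds Z-form nucleic acids, and PKR, from Eif2ak2, halts translation on double-stranded RNA. Many of these genes are themselves induced by interferon through factors that bind repeats of GAAA.

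On mouse assembly GRCm38.p6, Ifih1 (chr2:62595618-62646255), Mavs (chr2:131234063-131248025) and Zbp1 (chr2:173206612-173218959) lie far apart on 1 chromosome. Ddx58 lies at chr4:40203777-40239825, Tlr3 at chr8:45395665-45411075, Tlr9 at chr9:106222598-106226876, Dhx58 at chr11:100694884-100704271, Eif2ak2 at chr17:78850504-78882572 and Tlr7 at chrX:167303380-167330574.

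A pair of such repeats, GAAA, any 2 bases and GAAA again (TTTC, any 2 bases and TTTC on the other strand), was looked for on both strands in RefSeq promoter windows (GRCm38.p6) of 250 bases before and 50 bases after each gene start; overlapping matches were each kept. Windows were at hand for 6 of the 10 genes, those of Ifih1, Ddx58, Mavs, Tlr3, Tlr9 and Eif2ak2, and 3 of them held a match. These are printed with 4 interferon-stimulated genes whose RNA was higher in Dhx9.1241 cells, since they let a sensor gene that changed be set beside 2 that did not pass the test. Letters run 5′ to 3′ on the gene's own strand, with the match in capitals and up to 10 bases on each side.
Ifih1, chr2:62646206-62646233, minus strand: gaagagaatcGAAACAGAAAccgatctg
Ddx58, chr4:40239804-40239833, minus strand: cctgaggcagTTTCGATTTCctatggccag
Eif2ak2, chr17:78882535-78882564, minus strand: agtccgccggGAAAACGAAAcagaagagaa
Ifit1, chr19:34640775-34640804, plus strand: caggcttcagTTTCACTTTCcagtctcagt
Ifit3, chr19:34583363-34583392, plus strand: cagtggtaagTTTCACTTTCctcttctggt
Rsad2, chr12:26456553-26456582, minus strand: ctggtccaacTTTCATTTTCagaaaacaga
Cxcl10, chr5:92349083-92349112, minus strand: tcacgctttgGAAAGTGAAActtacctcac

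The match began at base 33 of the transcribed side in Ifih1, at base 3 in Ddx58 and at base 19 in Eif2ak2, counting the gene start as 1. In Ifit1 it began 104 bases before the start, with a further match 85 bases before it, and Ifit3 likewise held a match at 156 bases, shown here, and one at 122 bases before the start. Of all 27025 genes with a window, 3.99% held such a match. A match is a run of letters and was not tested as a binding site.

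Dhx9 measured 11.46, 11.43 and 11.38 on the log2 scale in Dhx9.1241 cells, against 12.40, 12.48 and 12.36 in Rluc.713 cells, a difference of -0.99 (limma adjusted p = 0.000129). The sample titles name Dhx29 instead, a gene whose difference was 0.04 (adjusted p = 0.857), and the groups are therefore called by their hairpins. The second principal component held 34.4% of the variance, against 39.1% for the first. Along it, Rluc.713 replicate 1 scored 16.7 and Dhx9.1241 replicate 2 scored 3.62, whereas Rluc.713 replicates 2 and 3 scored -4.81 and -5.29. The median absolute log2 difference of Rluc.713 replicate 1 was 0.088 from Dhx9.1241 replicate 2, and 0.109 and 0.113 from the other controls. Rluc.713 replicate 1 was also the lowest control for 8 of the 10 sensor genes. The same held for 38.8% of all genes and for 64.3% of genes at or above the median level, so the sensor genes are also given without this array. Markers fitted the B lineage label: 10 of 11 measured B cell markers lay among the brightest 10% of genes. The linear values of the 11 summed to between 83359 and 87587 in Dhx9.1241 cells and between 88777 and 93872 in Rluc.713 cells, with Vpreb3 lower (-0.57). Without Vpreb3 the sums were 77756 to 81733 in Dhx9.1241 cells and 80269 to 85501 in Rluc.713 cells, ranges that overlap. Vpreb3 was left out because its linear values differed most between the groups, so part of the narrowing follows from that choice.

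Of the 10 sensor genes, Ifih1 alone passed the test, with a level 1.5-fold higher in Dhx9.1241 cells. The other 9 did not pass: 4 had a positive and 5 a negative mean difference. The test was limma's moderated one, two-sided, and a gene passed where its p, adjusted by Benjamini and Hochberg's method over all 18784 genes, was under 0.05. Of all genes 3.14% passed, 2.07% higher and 1.07% lower, and nothing about the sensor genes as a group is read from a count of 1 among 10. At an unadjusted p under 0.05, 1 sensor gene was higher and 2 were lower; of all genes 14.1% passed that threshold, 8.5% higher and 5.63% lower, and the list counts at an unadjusted p given later stand against these shares. The median log2 difference of the 10 genes was -0.01, against 0.0049 over all genes.

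**Figure D1:**
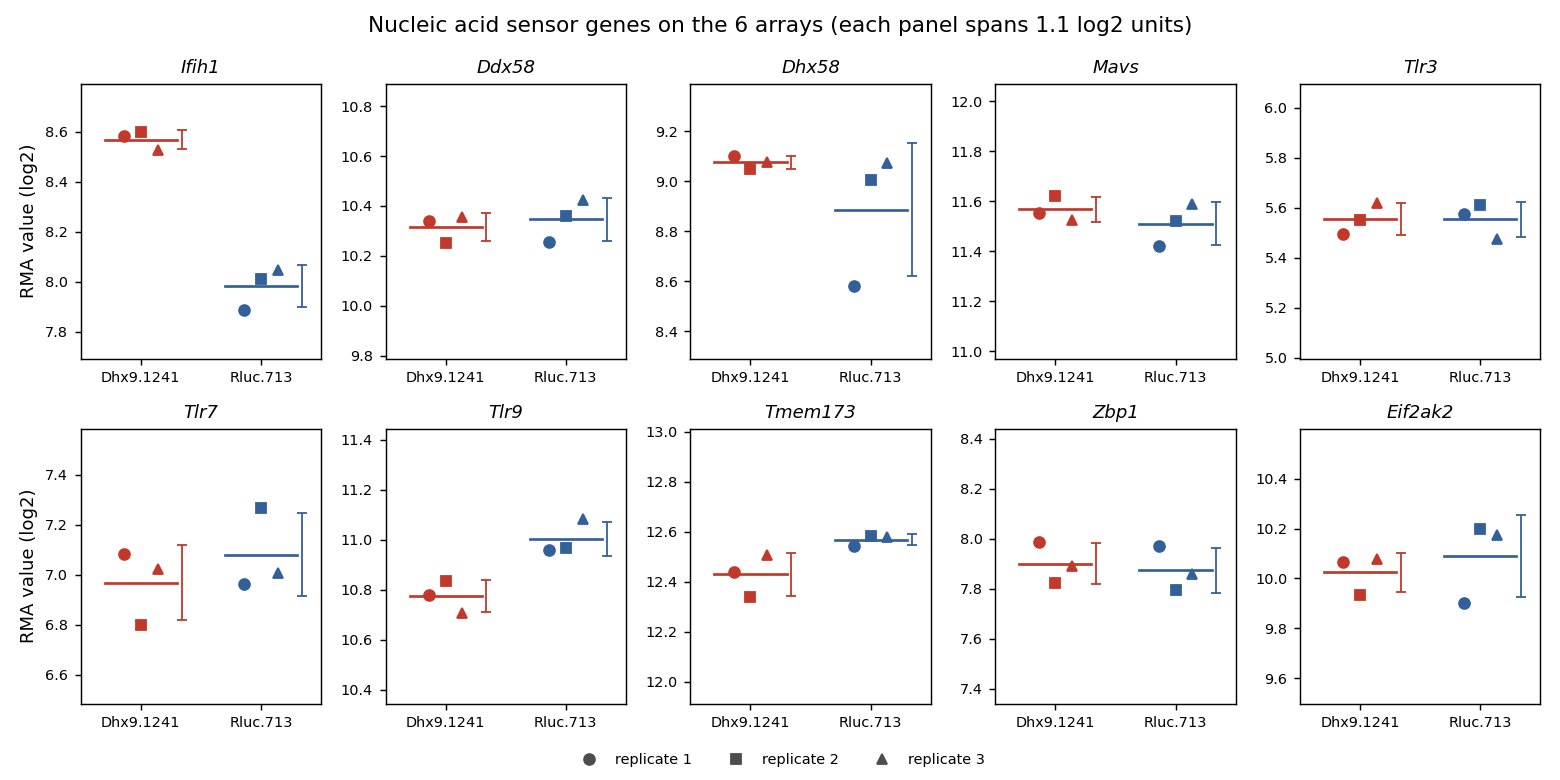
RMA values (log2 scale) of the 10 sensor genes on each array, Dhx9.1241 at the left and Rluc.713 at the right of each panel; points are arrays, lines group means and bars 1 SD (n = 3). Ifih1 lies near 8.57 in Dhx9.1241 cells and 7.98 in Rluc.713 cells with no overlap, whereas the groups overlap in 7 of the other 9 genes.

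Ifih1 encodes MDA5, the receptor of long double-stranded RNA. It measured 8.58, 8.60 and 8.53 on the log2 scale in Dhx9.1241 cells, against 7.89, 8.01 and 8.05 in Rluc.713 cells. All 3 Dhx9.1241 arrays were above all 3 controls, and the gap between the groups was wider than the spread within either one. The means were 8.57 ± 0.037 in Dhx9.1241 cells and 7.98 ± 0.084 in Rluc.713 cells (SD, n = 3 each), a log2 difference of 0.59 (SE 0.057, 95% interval 0.46 to 0.72, limma adjusted p = 0.00187). This was the 94th largest difference in size among 18784 genes. Without Rluc.713 replicate 1 the difference was 0.54 (adjusted p = 0.00117), and the call held in each of the 6 fits that left out 1 array, with differences between 0.54 and 0.62.

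The other helicases of the family did not pass. Ddx58, which encodes RIG-I, the receptor of RNA with 5′ triphosphate ends, measured 10.34, 10.25 and 10.36 in Dhx9.1241 cells, against 10.26, 10.36 and 10.43 in Rluc.713 cells. The groups overlapped, and the log2 difference was -0.03 (95% interval -0.17 to 0.11, limma adjusted p = 0.932). For the spread among these arrays, the ends of the interval are a 1.08-fold rise and a 1.12-fold fall. Dhx58, which encodes LGP2, measured 9.10, 9.05 and 9.08 in Dhx9.1241 cells, against 8.58, 9.004 and 9.07 in Rluc.713 cells. One control array, replicate 1, was far below the others and set most of the mean difference of 0.19 (interval -0.08 to 0.46, adjusted p = 0.588); without that array the difference was 0.04 (adjusted p = 0.704).

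Mavs, the adaptor through which RIG-I and MDA5 signal, measured 11.55, 11.62 and 11.53 in Dhx9.1241 cells, against 11.42, 11.52 and 11.59 in Rluc.713 cells. The values of the groups lay among each other. The difference was 0.06 (interval -0.08 to 0.19, limma adjusted p = 0.815), with the upper end of the interval at a 1.14-fold rise.

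The log2 gap between Ifih1 and each other sensor gene was also taken on each array. Because Ifih1 was picked as the one gene that passed, these gaps are a description and carry no test. The gap was larger in Dhx9.1241 cells than in Rluc.713 cells by 0.62 against Ddx58, 0.40 against Dhx58 and 0.53 against Mavs, and by up to 0.82, against Tlr9.

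**Figure D2:**
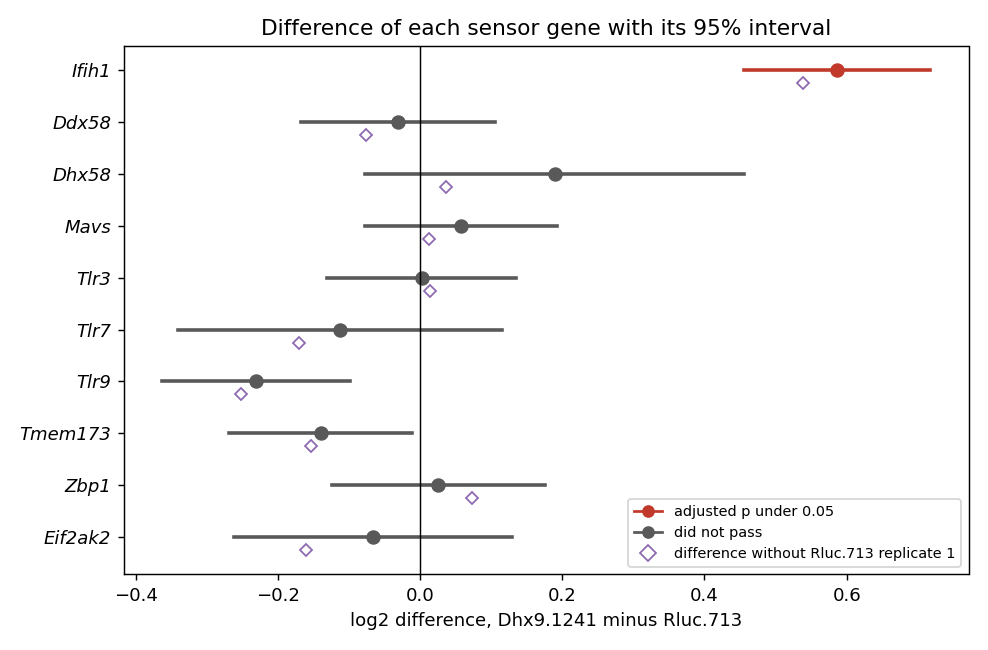
Log2 difference, Dhx9.1241 minus Rluc.713, of each sensor gene (points) with its 95% interval from limma (lines); open diamonds give the difference without Rluc.713 replicate 1. The Ifih1 interval runs from 0.46 to 0.72, and those of Tlr9 and Tmem173 lie below 0 although neither passed the adjusted threshold.

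For the genes of PKR and ZBP1, the sensors of double-stranded RNA and of Z-form nucleic acids, the groups overlapped. Eif2ak2 measured 10.06, 9.93 and 10.08 in Dhx9.1241 cells, against 9.90, 10.20 and 10.17 in Rluc.713 cells. The lowest value of all 6 was a control, replicate 1, and the highest were the other two controls. The difference was -0.07 (interval -0.26 to 0.13, limma adjusted p = 0.871), and -0.16 without Rluc.713 replicate 1 (adjusted p = 0.158). Zbp1 measured 7.99, 7.82 and 7.89 in Dhx9.1241 cells, against 7.97, 7.79 and 7.86 in Rluc.713 cells. Its 6 values were interleaved, with a difference of 0.03 (interval -0.12 to 0.18, adjusted p = 0.951).

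Among the endosomal receptors, Tlr9 lay lower in Dhx9.1241 cells, near the threshold. It measured 10.78, 10.83 and 10.71 in Dhx9.1241 cells, against 10.96, 10.97 and 11.08 in Rluc.713 cells. Every Dhx9.1241 value was below every control value; 8.51% of all genes had groups separated in that direction. The means were 10.77 ± 0.064 in Dhx9.1241 cells and 11.00 ± 0.069 in Rluc.713 cells (SD, n = 3 each), a difference of -0.23 (SE 0.058, interval -0.36 to -0.10, limma adjusted p = 0.0836). The receptor of unmethylated DNA thus did not pass in the reported fit. It did pass under 5 of 14 alternatives, with the adjusted p between 0.0191 and 0.267 over all 14, and its difference stayed between -0.26 and -0.19.

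Tlr7, the receptor of single-stranded RNA, measured 7.08, 6.80 and 7.02 in Dhx9.1241 cells, against 6.96, 7.27 and 7.01 in Rluc.713 cells. Its spread was the widest of the 3 receptor genes, and the groups overlapped. The difference was -0.11 (interval -0.34 to 0.12, limma adjusted p = 0.760), and it ranged from -0.17 to -0.02 when 1 array was left out. Tlr3, the receptor of double-stranded RNA, measured 5.49, 5.55 and 5.62 in Dhx9.1241 cells, against 5.58, 5.61 and 5.47 in Rluc.713 cells. Only 5.78% of genes had a lower mean than Tlr3, the dimmest of the 10, and 21.5% a lower mean than Tlr7. The Tlr3 difference was 0.0022 (interval -0.13 to 0.13, adjusted p = 0.997). No detection call was used, so this interval limits the signal of the Tlr3 probe set and not a change in Tlr3 RNA.

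Tmem173, the gene of the adaptor STING, measured 12.44, 12.34 and 12.51 in Dhx9.1241 cells, against 12.54, 12.58 and 12.58 in Rluc.713 cells. The Dhx9.1241 arrays were all below the controls, but their own spread (SD 0.085) was wider than the controls' (SD 0.023). The difference was -0.14 (interval -0.27 to -0.01, limma unadjusted p = 0.0363, adjusted p = 0.30). Without Rluc.713 replicate 1 the difference was -0.15 for Tmem173, -0.25 for Tlr9 (adjusted p = 0.055), -0.17 for Tlr7, 0.01 for Tlr3 and Mavs, -0.08 for Ddx58 and 0.07 for Zbp1, and none of these passed. In all, 3 of the 10 sensor genes, Ifih1, Tlr9 and Tmem173, had groups that did not overlap, where 20.1% of all genes did.

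**Figure D3:**
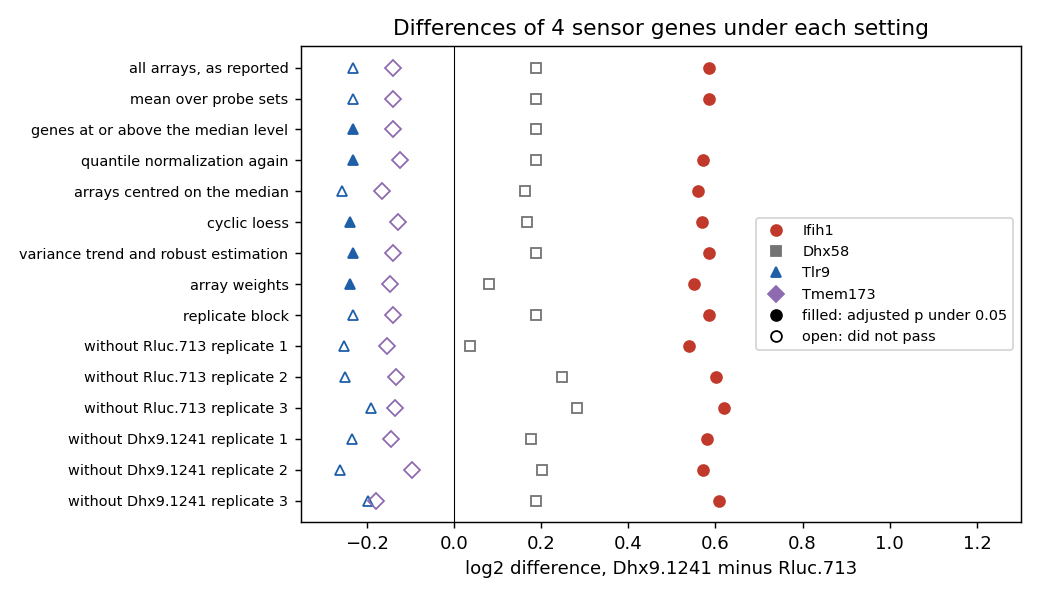
Log2 difference, Dhx9.1241 minus Rluc.713, of Ifih1, Dhx58, Tlr9 and Tmem173 (horizontal axis) under each way of processing or leaving out an array (rows); filled symbols had an adjusted p under 0.05. Ifih1 stays between 0.54 and 0.62 and filled wherever it was fitted, Tlr9 is filled in 5 rows, and Dhx58 drops to 0.04 without Rluc.713 replicate 1.

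Genes that act with or after these sensors, interferon genes, interferon-stimulated genes and other helicases were read from 7 lists with 130 measured genes. Of these, 12 were higher, 6 lower and 112 did not pass, where 2.07% of all genes were higher and 1.07% lower. A gene shared by lists, such as Irf7, was counted once in these totals. The interferon-stimulated list held 10 of the higher genes, and 1 of the lower genes was Dhx9, the hairpin's target. In the list of regulators and signalling genes downstream of RIG-I and MDA5, 2 of 21 were higher, none was lower and 19 did not pass. At an unadjusted limma p under 0.05, 3 were higher and none was lower, against 8.5% and 5.63% of all genes. Ikbke, which encodes a kinase that phosphorylates the interferon regulatory factors, measured 8.64, 8.43 and 8.51 in Dhx9.1241 cells, against 8.13, 8.27 and 8.15 in Rluc.713 cells. Its groups did not overlap, and the log2 difference was 0.35 (SE 0.068, limma adjusted p = 0.0341). The interferon regulatory factor gene Irf7 measured 8.03, 8.14 and 8.28 in Dhx9.1241 cells, against 7.78, 7.82 and 7.68 in Rluc.713 cells, a difference of 0.39 (SE 0.073, adjusted p = 0.0279). Neither call held throughout: Ikbke passed in 1 and Irf7 in 2 of the 6 fits without 1 array. The list median was 0.04.

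In the list of endosomal receptor trafficking and signalling, 15 of 20 measured genes had a negative difference. Of the 20, 3 were lower, none was higher and 17 did not pass, and the list median was -0.06. Pld4, which encodes an endolysosomal exonuclease that degrades single-stranded nucleic acids, ligands of TLR9 and TLR7, measured 10.67, 10.55 and 10.65 in Dhx9.1241 cells, against 11.26, 11.27 and 11.30 in Rluc.713 cells. Its groups lay far apart next to their spread, with a difference of -0.65 (SE 0.052, limma adjusted p = 0.000839), a level 1.57-fold lower, and it passed in all 6 fits without 1 array.

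Cnpy3, which encodes a chaperone needed for Toll-like receptors to leave the endoplasmic reticulum, measured 11.11, 10.98 and 11.00 in Dhx9.1241 cells, against 11.31, 11.45 and 11.41 in Rluc.713 cells. All its Dhx9.1241 values lay below the controls, and the difference was -0.36 (SE 0.060, limma adjusted p = 0.0177). Pik3ap1, which encodes the adaptor BCAP of B cell and Toll-like receptors, fell by 0.23 on the log2 scale (SE 0.048, adjusted p = 0.0438). Unc93b1, which carries TLR3, TLR7 and TLR9 to endosomes and is named here after its values were seen, stood at -0.21 (adjusted p = 0.071) and passed without Rluc.713 replicate 1 (0.0338). The count of lower genes in this list was 4 without that array, 2 without Dhx9.1241 replicate 1 and 1, Pld4, without any one of the other 4 arrays. At an unadjusted p under 0.05, 2 genes of the list were higher and 4 lower, where 8.5% and 5.63% of all genes were.

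Markers of myeloid cells, which also use endosomal receptors, had lower sums in Dhx9.1241 cells as well. Of 17 measured myeloid markers, 15 had a negative difference, and the list median was -0.10. Lyz2, Csf1r, Tyrobp and Fcer1g were lower and none was higher. At an unadjusted p under 0.05, 6 were lower and 2 higher. The higher ones were Fcgr3 (0.22, limma adjusted p = 0.0972) and Itgam (0.21, adjusted p = 0.152), both named after their values were seen. Lyz2, which encodes a lysozyme of phagocytes, had the largest difference, at 9.42, 9.23 and 9.39 in Dhx9.1241 cells, against 10.64, 10.75 and 10.60 in Rluc.713 cells. The linear values of the myeloid list summed to between 9080 and 9539 in Dhx9.1241 cells and between 10430 and 10966 in Rluc.713 cells. Without Lyz2 the sums were 8479 to 8858 in Dhx9.1241 cells and 8839 to 9312 in Rluc.713 cells, ranges that overlap. Lyz2 was left out because its linear values differed most between the groups, so part of the narrowing follows from that choice. The dendritic list of 12 genes summed to between 4961 and 5165 in Dhx9.1241 cells, against 5224 to 5434 in Rluc.713 cells; Flt3 was higher in it (0.45) and Cox6a2 lower (-0.26). Without Cox6a2 its sums were higher in Dhx9.1241 cells, at 2826 to 2910, against 2608 to 2774 in Rluc.713 cells. Cox6a2 was left out by the same rule, and the median of the dendritic list was 0.02. For fibroblasts, the cells of the feeder layer, 1 of 19 markers, Cav1, was lower (-0.25) and the sums were 5256 to 5335 in Dhx9.1241 cells and 5288 to 5854 in Rluc.713 cells. None of 13 T or NK cell markers passed, with 1 higher at an unadjusted p under 0.05 and sums of 2151 to 2230 in Dhx9.1241 cells and 2067 to 2285 in Rluc.713 cells. No marker is at 0 on this scale, where an unexpressed gene also has a value, and in RNA from a whole culture fewer cells of a type and less RNA per cell cannot be told apart. The part of these cell types in the differences of Tlr9, Pld4, Cnpy3 and Pik3ap1 was not tested.

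In the list of cytosolic DNA sensing, 1 of 16 genes was higher, none was lower and 15 did not pass, and the median was 0.0037. The gene that passed was Zdhhc1, which encodes a palmitoyltransferase-family protein reported to assist STING, at 9.93, 10.01 and 9.94 in Dhx9.1241 cells, against 9.51, 9.68 and 9.71 in Rluc.713 cells. Its groups did not overlap, with a difference of 0.32 (SE 0.064, limma adjusted p = 0.0351). Rnaseh2a, which encodes the catalytic subunit of the enzyme that removes ribonucleotides from DNA, stood at 0.25 (adjusted p = 0.0561) and was called higher under 5 alternatives. Zdhhc1 passed in 1 of the 6 fits without 1 array. At an unadjusted p under 0.05, 5 of the 16 genes were higher and none was lower, where 8.5% and 5.63% of all genes were.

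Among 16 genes that bind double-stranded RNA or act after ZBP1 and PKR, 1 was lower, none was higher and 15 did not pass; at an unadjusted p under 0.05, 2 were lower and none was higher, against 5.63% and 8.5% of all genes. Mlkl, which encodes the pore-forming effector of necroptosis, a form of death that ZBP1 can start, measured 7.28, 7.19 and 7.22 in Dhx9.1241 cells, against 7.50, 7.61 and 7.69 in Rluc.713 cells. Its difference was -0.37 (SE 0.061, limma adjusted p = 0.0171), and the call held in 1 of the 6 fits without 1 array. Oas1g, of the oligoadenylate synthetases, stood at 0.20 (adjusted p = 0.525). Of 9 other helicases linked to nucleic acid sensing, the one that was lower was Dhx9 itself, the hairpin's target. The other 8 did not pass, Ddx6 at -0.13 among them. In this list 7 differences were negative and 2 positive, with a median of -0.07. At an unadjusted p under 0.05, 2 were lower, Dhx9 among them, and none was higher, against 5.63% and 8.5% of all genes.

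None of 23 genes of interferons, their receptors and receptor signalling passed in the limma test, with 4 higher and none lower at an unadjusted p under 0.05, against 8.5% and 5.63% of all genes. Irf9, the DNA-binding part of the interferon response factor, had the largest difference, 0.26 (adjusted p = 0.0703), and Stat2, its partner, stood at 0.20 (adjusted p = 0.247). Under 5 alternatives Irf9 was called higher, and under 2 of these Il10rb, a receptor subunit of interferon lambda, was as well. Ifnb1, the interferon beta gene, named here for its role as the product of the sensor pathways, measured 6.69, 6.70 and 6.62 in Dhx9.1241 cells, against 6.80, 6.64 and 6.69 in Rluc.713 cells. Its groups overlapped, with a difference of -0.04 (interval -0.17 to 0.09, adjusted p = 0.908), and 16.7% of genes had a lower mean. As for Tlr3, this interval limits the signal of the Ifnb1 probe set and not a change in Ifnb1 RNA. The 15 interferon genes measured include near-identical copies, and their probe sets may share signal.

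Of 31 measured interferon-stimulated genes, the usual readout of an interferon response, 10 were higher, 1 was lower and 20 did not pass. Of all genes 2.07% were higher and 1.07% lower. At an unadjusted limma p under 0.05, 16 of the 31 were higher and 1 was lower, against 8.5% and 5.63% of all genes. The median difference of the 31 was 0.20, against -0.01 for the sensor genes and 0.0049 for all genes. The largest differences were those of Rsad2 (1.23), Ifit1 (1.12), Oasl2 (0.94), Cxcl10 (0.81) and Ifit3 (0.80), followed by Oasl1 (0.67), Rtp4 (0.55), Usp18 (0.49), Irf7 (0.39) and Ifi27 (0.36), while Parp14 was at -0.26. The Ifih1 difference of 0.59 falls between those of Oasl1 and Rtp4. Without Rluc.713 replicate 1 the count of higher genes was again 10, and leaving out another array gave 7 to 9. Promoter windows were at hand for 23 of the 31 genes, and the GAAA pair was found in 4 of 7 that were higher and in 7 of 16 that were not.

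**Figure D4:**
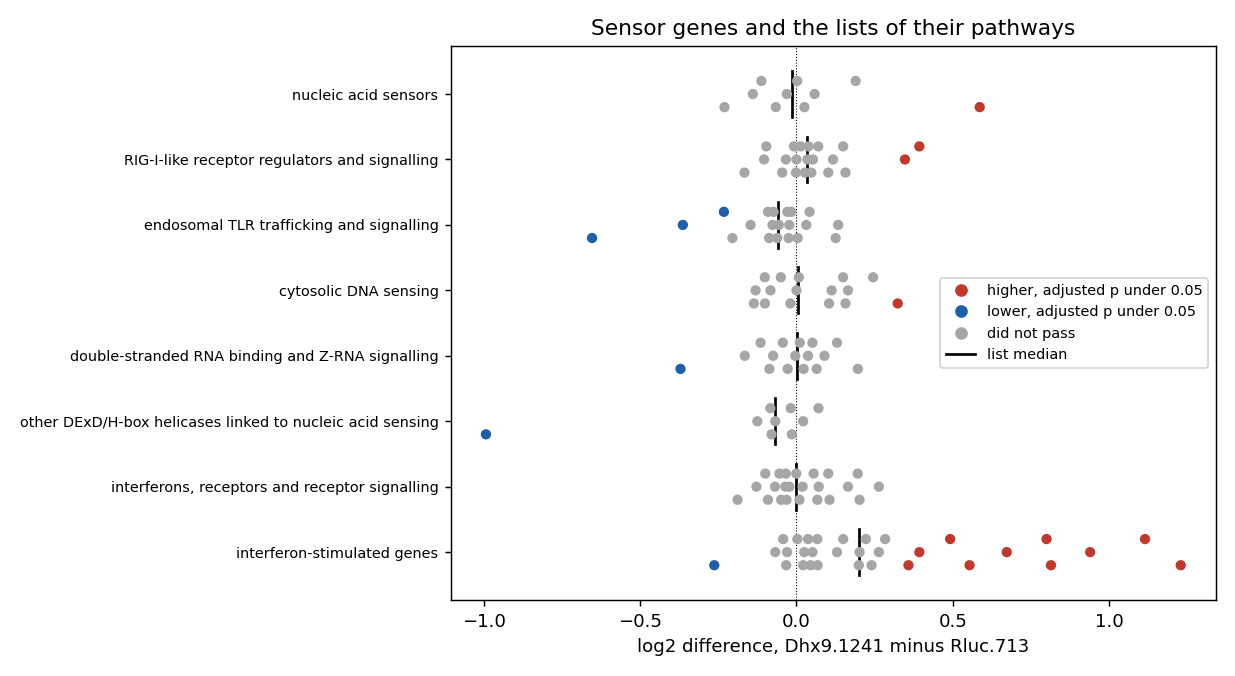
Log2 difference, Dhx9.1241 minus Rluc.713, of the 10 sensor genes and of the genes in 7 pathway lists (1 point per gene, 1 row per list, black lines at the list medians). The interferon-stimulated genes reach 1.23 and hold 10 red points, whereas the sensor row holds 1, and the lowest point, at -0.99, is Dhx9.

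Genes whose levels followed those of Ifih1 most closely over the 6 arrays were sought among all genes by the root mean square distance between log2 profiles, each centred on its own mean. The nearest was Nectin1, a cell adhesion gene, at a distance of 0.029. It measured 10.03, 10.10 and 10.07 in Dhx9.1241 cells, against 9.40, 9.51 and 9.55 in Rluc.713 cells. The integrin gene Itga6 followed at 0.032 and Dglucy, a gene of D-glutamate breakdown, at 0.033, with differences of 0.56 and 0.57. In each of them, as in Ifih1, the lowest value was that of Rluc.713 replicate 1. Such agreement follows from choosing genes by their nearness to the Ifih1 profile. These distances describe 6 arrays in 2 groups and carry no test.

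**Figure D5:**
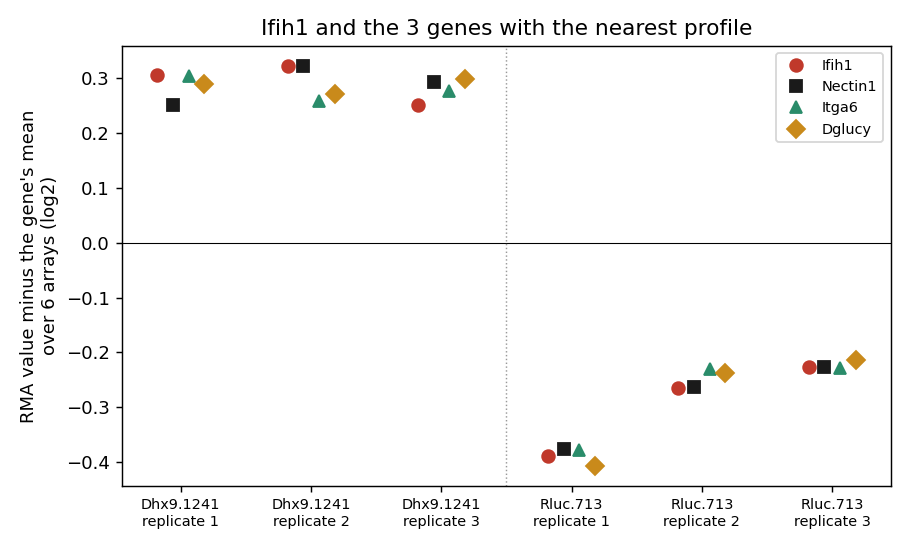
RMA value minus the gene's own mean over the 6 arrays (log2 scale, vertical axis) for Ifih1 and its 3 nearest genes on each array (horizontal axis; symbols are set side by side). All 4 genes lie above 0 on the 3 Dhx9.1241 arrays and below 0 on the 3 Rluc.713 arrays.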

How the data were processed

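Affymetrix arrays measured RNA from 6 lymphoma samples; the labels' protocols name a 3′ IVT labelling kit. The deposited values are 1 per probe set and array on a log2 scale, made by the authors with RMA, per the submitters' processing notes. For its version, genome build and probe set definition the entry is: not given in the sources used here. RMA tends to compress differences of dim probe sets. The log2 scale was read from the values, 3.97 to 14.6. Of 21212 probe sets, 18786 had 1 gene symbol, 6 had several and 2420 had none; symbols were updated by Entrez number through a GRCm38.p6 gene table. Of 2 genes with more than 1 probe set the brighter one was used, which left 18784 genes with no filter on dim ones. No detection call was used.

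Differences (Dhx9.1241 minus Rluc.713) come from a fit by limma 3.58.1 (lmFit, eBayes) in R 4.3.3 on all genes, without covariates, with Benjamini-Hochberg adjustment and a threshold of 0.05. On simulated arrays with known log2 changes, the fit called 36.8% of changes of 0.3, 85.2% of changes of 0.6 and 97.6% of changes of 1.0. The noise was drawn for each gene on its own, without deviations shared by many genes such as that of Rluc.713 replicate 1. These shares may therefore not hold for the real arrays. Failing to pass does not by itself show that a gene lacks a difference of 0.3. With 3 arrays in each group, the number of arrays limits the precision. Named are the 10 sensor genes, Dhx9 and Dhx29, called genes of each pathway list (the 2 largest differences where fewer than 2 were called), up to 4 called markers of a list and the 3 nearest profiles; exceptions are marked. The sensor genes and lists were chosen with earlier results of these data known.

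The alternatives tried were averaging a gene's probe sets, a filter at the median level (8.47), a repeated quantile normalization, median centring, cyclic-loess scaling, limma's trended prior with robust settings, weights per array, a block for the replicate number, and omission of each array in turn.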

Additional observations from a re-analysis of the deposited data

How the results depend on the processing

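Ifih1 kept its direction and its call under all 13 alternatives that could be fitted (0.54 to 0.62, adjusted p 0.000249 to 0.0167); it lies below the median level and is left out by the level filter, under which 0 sensor genes were higher. Tlr9 made 1 sensor gene lower under the level filter, repeated quantile normalization, cyclic-loess scaling, limma's trended robust prior and array weights, against 0 as reported; the cause was not tested. No other sensor gene passed under any alternative run. Differences near 0 changed sign: Tlr3 was -0.0238 with median centring, -0.0017 with array weights and -0.0376 to 0.0327 when 1 array was left out; Zbp1 was -0.00054 with median centring and -0.0176 to 0.0737 when 1 array was left out; Ddx58 was -0.0765 to 0.00818 when 1 array was left out.

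Of all genes, 389 were higher and 201 lower, as reported and with a gene's probe sets averaged. Higher and lower genes numbered 609 and 382 under the level filter, 507 and 360 under repeated quantile normalization, 250 and 185 with median centring, 503 and 345 with cyclic-loess scaling, 673 and 466 under the trended robust prior, and 669 and 542 with array weights. Leaving out 1 array gave 126 to 497 higher and 70 to 399 lower, the most without Rluc.713 replicate 1. Of the 130 pathway genes, 12 were higher and 6 lower as reported, and 7 to 12 were higher and 2 to 7 lower when 1 array was left out. The endosomal list had 3 lower genes as reported and 1 to 4 when 1 array was left out, and 1 gene, Lgmn, was higher under the trended robust prior. In the DNA-sensing list Rnaseh2a, and in the interferon list Irf9, was also higher under the level filter, repeated quantile normalization, cyclic-loess scaling, the trended robust prior and array weights; Il10rb was higher under the level filter and the trended robust prior. The interferon-stimulated list had 7 to 10 higher genes when 1 array was left out; its 1 lower gene became 0 with median centring, and 0 to 1 when 1 array was left out. A fit on 5 arrays rests on fewer samples.

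The labels say nothing of pairing. Same-numbered deviations from the group means correlated over genes at -0.271, -0.339 and 0.24. Deviations from a group mean constrain each other, so these values cannot settle if arrays were paired by replicate number. A block for that number left 172 genes higher and 92 lower; Ifih1 passed (adjusted p = 0.0118), and the pathway lists held 8 higher and 2 lower genes, the endosomal list 1 lower gene and the interferon-stimulated list 0 lower genes.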

Other observations

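Among genes of enzymes that limit the ligands of these sensors, Pld4 was lower, as given above (-0.65, limma adjusted p = 0.000839). Rnaseh2a stood at 0.25 (adjusted p = 0.0561). Others stood on both sides of 0, and none of those listed next passed the limma test as reported. Samhd1 did pass under limma's trended robust prior, and Rnaseh2c with array weights. Samhd1, which removes the nucleotides needed for DNA synthesis, stood at 0.16 (adjusted p = 0.176), Rnaseh2c at 0.16 (0.177) and Dnase2a, the lysosomal DNase, at 0.13 (0.209), whereas Rnaseh2b stood at -0.13 (0.529) and Trex1, the exonuclease of cytosolic DNA, at -0.10 (0.505). The groups of Samhd1, Rnaseh2c and Dnase2a did not overlap, with Dhx9.1241 higher, and 11.6% of all genes had groups separated in that direction. The cyclic dinucleotide synthase gene Cgas and the DNA sensor gene Aim2 stood at -0.10 (0.748) and -0.08 (0.901). Adar, whose product edits double-stranded RNA so that MDA5 binds it less, stood at 0.09 (adjusted p = 0.705), with means of 10.65 ± 0.087 in Dhx9.1241 cells and 10.56 ± 0.0996 in Rluc.713 cells (SD, n = 3 each). Apart from Pld4 and Rnaseh2a, these genes were chosen after their values were seen.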
